A study of Homo sapiens with 6 samples.

Results

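The subject here is a group of 10 genes that restrain signalling through ERK, the last kinase of the RAS-RAF-MEK cascade: DUSP1, DUSP2, DUSP4, DUSP5, DUSP6, DUSP10, SPRY1, SPRY2, SPRY4 and SPRED2. They were chosen by name, as every probe set annotated to exactly 1 of these genes, which gave 20 of 54613 probe sets and all 10 genes of 19775 with a probe set of their own. RNA came from Capan-1, a widely used cell line from a human carcinoma of the pancreas. There were 3 mock-transfected samples and 3 samples transfected with a human p16INK4a cDNA, numbered V1 to V3 in each group, and each was run on 1 array. The cDNA was driven by the cytomegalovirus promoter of a vector with neomycin resistance, and transfected cells were selected in hygromycin (0.1 mg/ml) together with G418 (1 mg/ml). The RPMI medium of both groups held amphotericin B (0.25 mg/ml), glutamine (2 mM) and calf serum (15%), so serum growth factors were present throughout. The labels do not say whether a sample is 1 clone or a pool, what the mock cells received or whether the replicates were separate cultures. The spread behind each p-value is therefore that of these samples alone and may be technical. The number of arrays limits the precision.

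ERK is switched on by phosphorylation of a threonine and a tyrosine, and dual-specificity phosphatases (DUSPs) remove both phosphates. DUSP6 works in the cytoplasm and DUSP5 in the nucleus, both with a preference for ERK. DUSP1, DUSP2 and DUSP4 are nuclear and also act on the stress kinases JNK and p38, and DUSP10 acts mainly on JNK and p38. Sprouty proteins (SPRY) and their Spred relatives act further upstream, between receptor tyrosine kinases and RAF. Transcription of many of these genes rises when ERK is active, so they form a negative feedback loop and are often read as a gauge of the pathway's output.

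The sequence before the transcription start shows where serum- and ERK-responsive factors could bind in some of these genes. RefSeq windows (GRCh38.p14) of the 250 bases before each start were matched by symbol for 8 of the 10 genes, 13 windows in all; DUSP4 and DUSP5 were not matched. A total of 4 genes that fell are shown: DUSP1 and DUSP6 for the motifs they hold, and SPRY1 and SPRY4 because their levels fell furthest among the members that were matched. For SPRY1, which has more than 1 listed start, the most upstream one is shown. Capitals mark matches on either strand to the cAMP response element (TGACGTCA), to the AP-1 site (TGANTCA) or to the core bound by ETS factors (CGGAA), and no matches of different motifs overlapped in these windows.
DUSP1, chr5:172771196-172771445, minus strand: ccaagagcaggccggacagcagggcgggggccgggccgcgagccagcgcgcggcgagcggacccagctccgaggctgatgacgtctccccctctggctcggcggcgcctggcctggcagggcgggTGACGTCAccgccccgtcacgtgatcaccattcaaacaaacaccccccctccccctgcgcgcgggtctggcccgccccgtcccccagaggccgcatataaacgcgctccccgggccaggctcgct
DUSP6, chr12:89352502-89352751, minus strand: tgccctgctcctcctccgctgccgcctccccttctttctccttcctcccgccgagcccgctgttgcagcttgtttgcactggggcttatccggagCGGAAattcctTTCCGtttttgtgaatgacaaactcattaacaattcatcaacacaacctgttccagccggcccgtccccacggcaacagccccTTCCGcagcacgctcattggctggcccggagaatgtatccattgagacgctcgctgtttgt
SPRY1, chr4:123396545-123396794, plus strand: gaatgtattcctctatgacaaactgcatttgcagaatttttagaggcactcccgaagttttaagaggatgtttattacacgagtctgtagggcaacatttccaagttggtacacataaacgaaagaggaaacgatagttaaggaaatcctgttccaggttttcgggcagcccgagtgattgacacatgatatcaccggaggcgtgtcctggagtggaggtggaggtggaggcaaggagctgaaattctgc
SPRY4, chr5:142324248-142324497, minus strand: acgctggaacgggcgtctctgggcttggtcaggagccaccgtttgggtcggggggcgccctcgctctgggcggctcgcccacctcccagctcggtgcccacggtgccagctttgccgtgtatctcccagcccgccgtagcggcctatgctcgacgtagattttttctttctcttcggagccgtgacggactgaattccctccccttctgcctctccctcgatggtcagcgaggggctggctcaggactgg
DUSP1 held a cAMP response element that begins 125 bases before the start, a motif found in 1.65% of all 35116 windows of this length. DUSP6 held 3 ETS cores, which begin 155, 144 and 61 bases before the start. ETS cores are short and common: 30.3% of all windows held at least 1, as did 3 of the 13 windows of the members. Those 3 belonged to DUSP6, SPRY2 and the second start of SPRY1. The AP-1 site stood in 6.57% of all windows and in none of the members'. These matches are letters in a window, and no binding was measured here.

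Levels below are log2 expression levels, on which a difference of 1 is a doubling. Values under 4 were taken as the array's floor. A probe set was tested if it reached 4 in at least 3 of the 6 samples, which 16 of the 20 passed, with at least 1 for each of the 10 genes. The other 4 were 226578_s_at of DUSP1, 230212_at of SPRY1, and 212466_at and 214026_s_at of SPRED2. None of the 10 genes lay at the floor in every sample of a group on the probe set that stands for it, its brightest tested one. "Fell", "rose" and "called" refer to a limma adjusted p under 0.05 over all probe sets tested, without a replicate block unless one is named.

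Across the whole array the groups differed widely, and not only in what a cDNA carries. Of 11658 genes tested, 42.0% were called, and across tested probe sets a sample correlated at 0.93 to 0.99 with samples of its own group but at 0.72 to 0.78 with those of the other. CDKN2A, the gene of p16, had a level of 12.60 ± 0.45 (SD, n = 3) in p16 cells, against 6.01 ± 0.41 in mock cells. Its chromosomal neighbours MTAP, CDKN2B and KLHL9, which the cDNA does not contain, were under 4 in all mock samples and read 11.05 ± 0.29, 8.77 ± 0.26 and 11.51 ± 0.21 in p16 cells. The effect of the cDNA therefore cannot be told apart from other differences between these cells. Epithelial markers were present in every sample, 8 of 8 at or above 4, and 6 of them fell, with a mean over the list of 13.38 to 13.68 in mock and 10.65 to 11.10 in p16 samples. KRT19, a duct keratin, read 13.97 ± 0.20 and 10.11 ± 0.40. The 4 endothelial markers and the 4 leukocyte markers analysed here lay under 4 in every sample, as did 4 of 8 fibroblast and stellate cell markers (COL1A2, COL3A1, DCN and PDGFRA). The mean log2 level over the genes of that last list was 4.04 to 4.12 in mock and 4.65 to 4.90 in p16 samples. Its 2 called genes went opposite ways: LUM was at least 30.4-fold higher and ACTA2 8.22-fold lower (adjusted p = 0.00041). The part of the lower epithelial markers in the results below was not tested.

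Most ERK feedback genes were lower in p16 cells. Of the 10, 7 fell (DUSP1, DUSP4, DUSP5, DUSP6, SPRY1, SPRY4 and SPRED2), none rose, and DUSP2, DUSP10 and SPRY2 were not called. In bulk RNA, fewer cells with a transcript and less of it per cell cannot be told apart. The background was 22.5% of all genes lower and 19.5% higher. The median log2 change of the 10 was -1.37, against -0.03 over all genes tested. In 8 of the 10 every p16 sample lay under every mock sample, which held for 29.1% of all genes. Of the 16 tested probe sets 11 fell and none rose (19.7% of all probe sets fell). The fall covered both branches, with 4 of 6 phosphatases and 3 of 4 Sprouty and Spred genes.

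**Figure D1:**
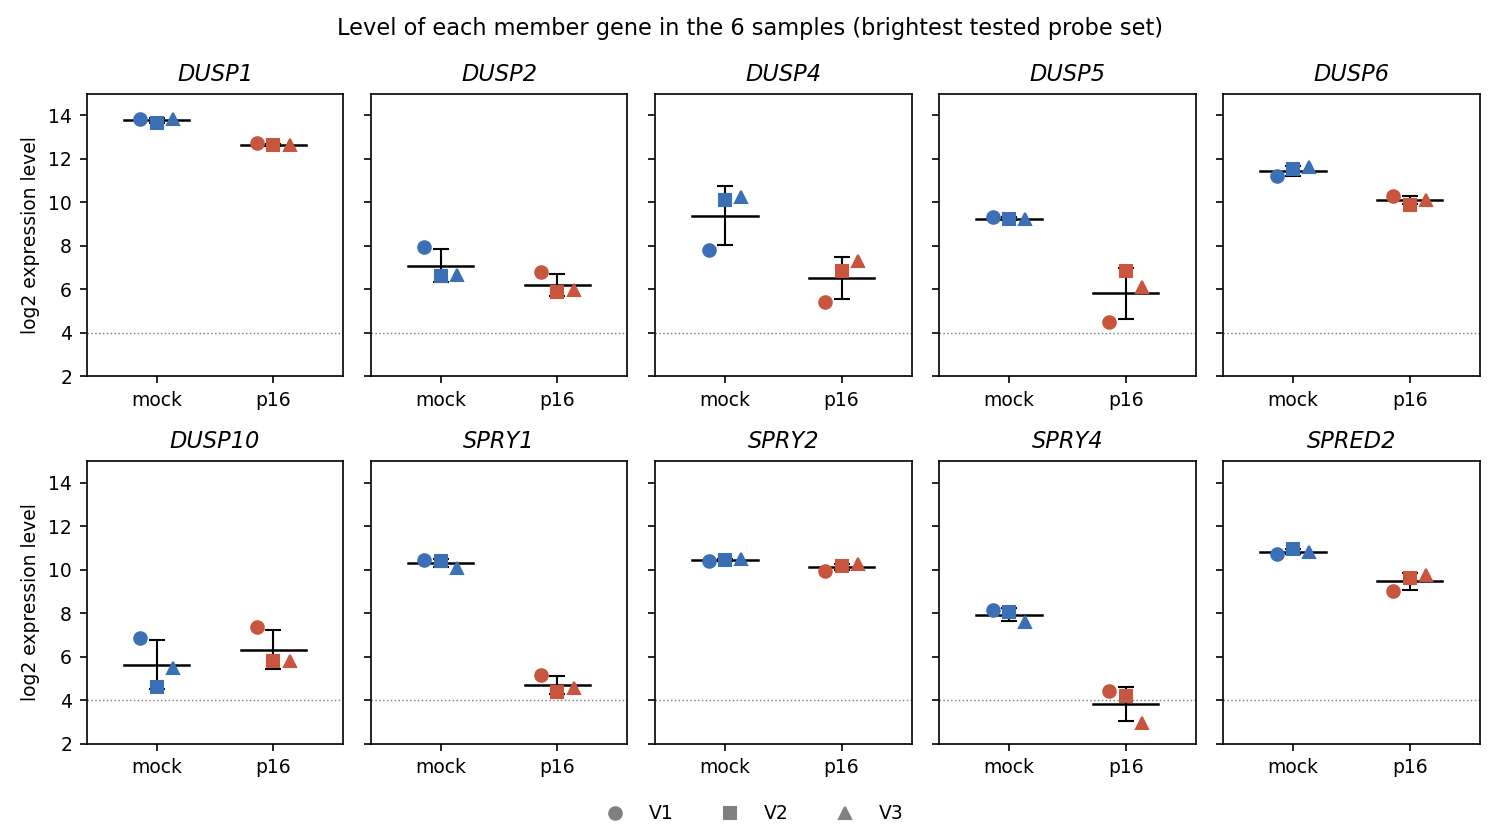
Log2 expression level of each gene (vertical axis) in the 3 mock and 3 p16 samples, by its brightest tested probe set. Each symbol is 1 sample, horizontal lines are group means, bars are SD, and the dotted line is the floor at 4. SPRY1, SPRY4, DUSP5 and DUSP4 show the widest gaps between groups, and only DUSP10 has a higher mean in p16 cells, with groups that overlap.

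Among the phosphatases with a preference for ERK, DUSP5 and DUSP6 both fell. DUSP6, the cytoplasmic enzyme, read 11.19, 11.53 and 11.64 in the mock samples V1 to V3 and 10.27, 9.89 and 10.10 in the p16 samples. All 3 p16 samples were lower, with a gap between the groups wider than the spread within either. The change was -1.36 (SE 0.20, adjusted p = 0.0037), 2.57-fold lower. The other DUSP6 probe sets, 208892_s_at and 208893_s_at, gave changes of -1.55 (SE 0.28, adjusted p = 0.0078) and -1.72 (SE 0.40, adjusted p = 0.020), so all 3 fell by similar amounts. The call on 208893_s_at was lost in 4 of the 6 fits that left out 1 sample (adjusted p up to 0.077), whereas the other pair of DUSP6 probe sets kept theirs in all 6.

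DUSP5, the nuclear enzyme, read 9.31, 9.22 and 9.22 in mock and 4.51, 6.82 and 6.11 in p16 samples. The p16 samples were all lower but far less alike (SD 1.18 against 0.05), with V1 the lowest. V2 and V3 of the mock group hold the same deposited value, so the mock SD rests in part on equal values. The change was -3.44 (SE 0.58, adjusted p = 0.0064), 10.9-fold lower, and ranged from -3.94 to -2.79 when 1 sample was left out, called each time.

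The nuclear phosphatases that also act on JNK and p38 split into a large fall, a small one and an uncalled difference. DUSP4 had 3 tested probe sets and all fell. Its brightest, 204015_s_at, read 7.82, 10.08 and 10.25 in mock and 5.41, 6.84 and 7.28 in p16 samples, a change of -2.88 (SE 0.82, adjusted p = 0.038). The groups did not overlap, yet V1 stood well under V2 and V3 in both, and this call was lost whenever any sample but mock V1 was left out (adjusted p 0.069 to 0.13). Probe set 204014_at read 8.03, 9.47 and 10.06 in mock and 5.17, 6.59 and 5.63 in p16 samples, a change of -3.39 (SE 0.63, adjusted p = 0.0087). Probe set 226034_at read 8.20, 7.26 and 7.48 in mock and 4.28, 3.59 and 3.63 in p16 samples, at least 11.7-fold lower (adjusted p = 0.00048), since V2 and V3 of the p16 group were under the floor. These probe sets stayed called in all 6 fits that left out a sample. They differ in how V1 stands: it was the highest sample of its group on 226034_at and the lowest on the other pair.

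DUSP1, an immediate early phosphatase, read 13.83, 13.64 and 13.81 in mock and 12.71, 12.62 and 12.62 in p16 samples on 201041_s_at. The samples of each group lay close together and the groups were clearly apart. The change was -1.11 (SE 0.15, adjusted p = 0.0026), 2.16-fold lower. A dimmer probe set, 201044_x_at, gave a similar change of -1.19 but was not called (SE 0.61, adjusted p = 0.19). Its V1 samples read 7.72 in mock and 6.43 in p16 cells, against 7.95 to 9.32 for the rest. Under a replicate block for the V number it was called lower (adjusted p = 0.0016).

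DUSP2 read 7.95, 6.62 and 6.64 in mock and 6.77, 5.87 and 5.94 in p16 samples. The groups overlapped, since V1 of the p16 group exceeded V2 and V3 of the mock group. The change of -0.88 (95% interval -2.01 to 0.25, adjusted p = 0.19) was not called, and it ranged from -1.17 to -0.44 when 1 sample was left out. Within each V number the p16 sample was lower, by -1.18, -0.75 and -0.70 in turn, and with the replicate block DUSP2 was called lower (adjusted p = 0.0067). Over all genes the block raised the share called lower from 22.5% to 35.5%.

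DUSP10 was the exception in direction. Its brighter probe set, 221563_at, read 6.84, 4.59 and 5.48 in mock and 7.36, 5.80 and 5.80 in p16 samples, a change of 0.68 (95% interval -1.07 to 2.43, adjusted p = 0.51). The groups overlapped, V1 was the highest sample of each, and the change ranged from 0.16 to 1.28 when 1 sample was left out. On this probe set V2 and V3 of the p16 group hold the same deposited value, so the spread rests in part on equal values. The other probe set, 215501_s_at, read 4.29, 3.67 and 3.68 in mock and 4.58, 4.73 and 4.32 in p16 samples, a change of 0.67 (adjusted p = 0.079) close to the floor. It was called higher after quantile normalization (adjusted p = 0.046) and without mock V1 (adjusted p = 0.028), and not in the other 5 fits that left out a sample (adjusted p 0.12 to 0.22). With the replicate block both were called higher (adjusted p = 0.044 and 0.031), beside 32.4% of all genes.

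Of the Sprouty genes, SPRY1 and SPRY4 fell far and SPRY2 hardly differed. SPRY1 read 10.46, 10.38 and 10.08 in mock and 5.16, 4.39 and 4.55 in p16 samples. All p16 samples were far under all mock samples, near the floor but above it. The change was -5.61 (SE 0.26, adjusted p = 4.4e-05), 48.7-fold lower, the largest of the 10 genes. Its second probe set, 230212_at, was too low to test, at 3.58, 4.92 and 4.42 in mock and 3.09, 3.21 and 3.35 in p16 samples.

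SPRY4 read 8.14, 8.05 and 7.59 in mock and 4.40, 4.17 and 2.94 in p16 samples. The p16 samples were again all lower, with V3 under the floor. It was at least 13.3-fold lower (change -4.09, SE 0.43, adjusted p = 0.00099).

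SPRY2 read 10.39, 10.43 and 10.51 in mock and 9.96, 10.16 and 10.27 in p16 samples. Every p16 sample was slightly lower, and the change of -0.31 (95% interval -0.70 to 0.08, adjusted p = 0.19; 0.068 with the replicate block) was not called. The log2 level of SPRY1 minus that of SPRY2 went from -0.14 ± 0.26 (SD, n = 3) in mock to -5.43 ± 0.54 in p16 samples, with no overlap between the groups. DUSP10 minus DUSP6 went from -5.81 ± 1.33 to -3.77 ± 0.75. Each gave p = 0.10 in a two-sided exact permutation test (adjusted p = 0.10 over 3 such differences, chosen after the values were seen), which is the smallest p that 3 samples against 3 allow, so neither could pass the threshold. The third, SPRY4 minus SPRY2, has only a bound in p16 cells, since SPRY4 was under the floor in V3.

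SPRED2, which blocks the step from RAS to RAF, read 10.73, 10.97 and 10.80 in mock and 9.01, 9.61 and 9.78 in p16 samples on 212458_at. The groups did not overlap, and the p16 samples were the more spread. The change was -1.37 (SE 0.25, adjusted p = 0.0077), 2.58-fold lower. Its other pair of probe sets could not be tested: 212466_at reached 4 in 1 sample, mock V2 at 4.95, and 214026_s_at read 2.06 to 2.10 throughout.

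**Figure D2:**
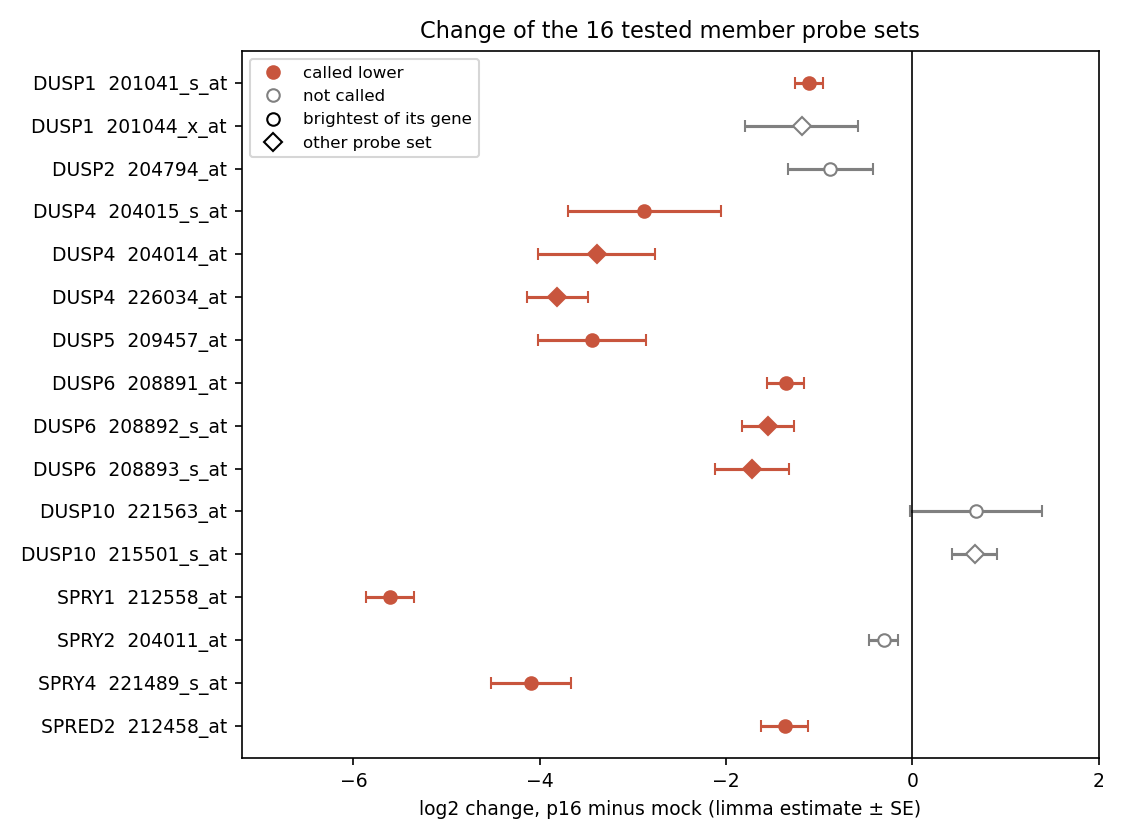
Log2 change from mock to p16 cells (horizontal axis) for the 16 tested probe sets of the 10 genes, as limma estimates with SE bars. Filled symbols are called lower, open ones not called, circles are the brightest probe set of a gene and diamonds the others. The 11 called probe sets all lie left of 0, from -5.61 for SPRY1 to -1.11 for DUSP1, and probe sets of 1 gene agree in sign.

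Comparing samples of the same V number gave the same directions. In 9 of the 10 genes, all but DUSP10, the p16 sample was lower than the mock sample in each of the 3 numbers. The share of all genes for which this holds was not computed. These differences use the same 6 samples as the main fit, so they are no separate evidence. For DUSP1 the differences were -1.12, -1.01 and -1.19, and for SPRY1 -5.30, -5.99 and -5.53, so the size hardly depended on the number. DUSP5 varied most, with -4.80 in V1, -2.41 in V2 and -3.12 in V3. With the replicate block, 8 of the 10 genes were called lower and 1 higher, beside 35.5% and 32.4% of all genes. DUSP2 and DUSP10 were the additions, and the same 7 kept their call.

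**Figure D3:**
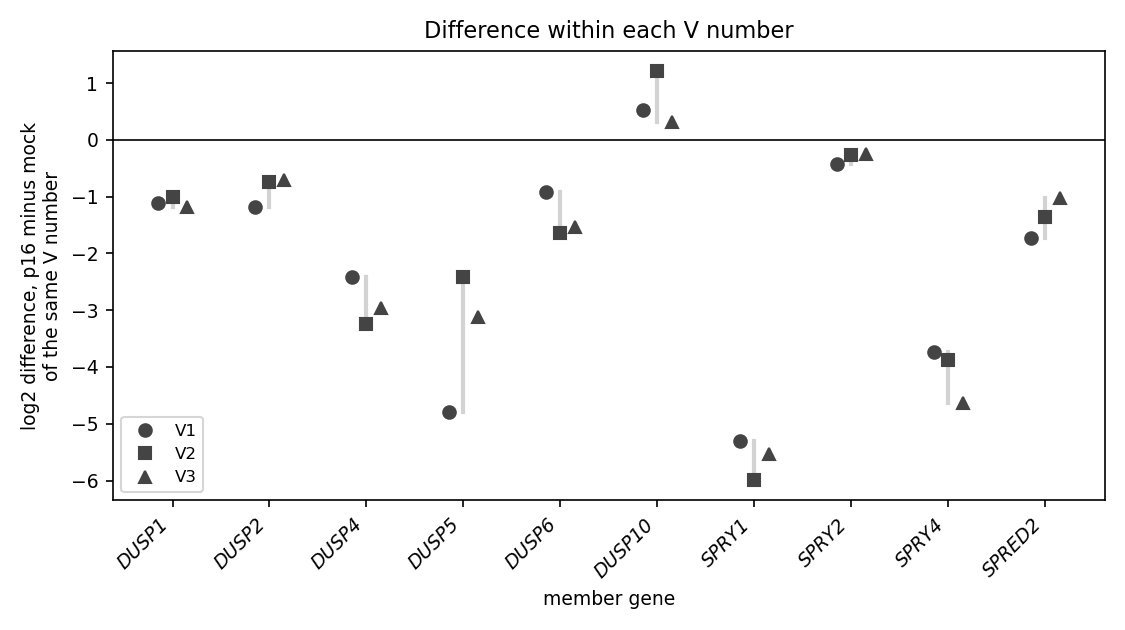
Log2 difference between the p16 and the mock sample of the same V number (vertical axis) for each of the 10 genes. Each symbol is 1 V number and grey lines span the 3. All differences lie under 0 except those of DUSP10, and the DUSP5 values spread from -4.80 to -2.41.

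The other restraints on ERK signalling moved less evenly. This list holds phosphatases, Spred relatives, RAS GTPase activators and receptor brakes outside the 10. Of its 20 tested genes 6 fell (30%), 3 rose (15%) and 11 were not called, with a median log2 change of -0.19. Over all genes 22.5% fell and 19.5% rose. With the replicate block 9 fell and 7 rose, beside 35.5% and 32.4% of all genes. The widest falls on the list were those of a pair of receptor brakes. LRIG1, which marks receptors of the EGF family for degradation, went from 10.62 ± 1.19 to 5.08 ± 0.94 (46.5-fold lower, adjusted p = 0.0026). ERRFI1, a feedback inhibitor of the EGF receptor, went from 13.79 ± 0.37 to 9.80 ± 0.39 (15.9-fold lower, adjusted p = 0.00026). DOK1 and the receptor brakes that follow it here were named after their values were seen. DOK1, also on the list, changed by -1.62 (adjusted p = 0.0065), whereas these other brakes had changes above 0. CBLB, a ubiquitin ligase, rose by 0.90 (adjusted p = 0.026), while its relative CBL changed by 0.65 (adjusted p = 0.21; 0.0094 with the replicate block) and IL17RD, an inhibitor of FGF receptor signalling, by 1.37 (adjusted p = 0.080; 0.0017 with the replicate block). RASA3, a GTPase activator, changed by -2.36 (adjusted p = 0.00084), on 1 of its 2 tested probe sets. PTPRR, a tyrosine phosphatase that acts on ERK, rose at least 17.2-fold from the floor, at 2.91 ± 0.30 in mock and 8.10 ± 0.23 in p16 cells. The close relatives of the 10 were not called: SPRED1 changed by -1.21 (adjusted p = 0.29; 0.013 with the replicate block), DUSP7 by -0.20 (adjusted p = 0.67) and DUSP16 by 0.83 (adjusted p = 0.21, although 1 of its 2 tested probe sets was called higher).

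Genes on the list of ERK-driven transcripts also fell more often than they rose. Besides genes whose transcription is known to follow ERK activity, the list holds the transcription factors ELK1, ELK3, ELK4 and SRF. Among the 28 tested genes 14 fell (50%) and 4 rose (14.3%), against 22.5% and 19.5% of all genes. The other 10 were not called, and the median log2 change was -0.84. ELK1 and ELK4 were among those that rose, with changes of 1.13 and 1.01. FOS, an immediate early factor, went from 12.92 ± 0.55 to 4.23 ± 1.45 (at least 302-fold lower, adjusted p = 0.00050) and FOSB from 11.02 ± 1.47 to 4.14 ± 0.91 (at least 98.2-fold lower, adjusted p = 0.0018). EREG, a ligand of the EGF receptor, was at least 74.6-fold lower (10.22 ± 0.18 and 2.65 ± 0.28). The protease inhibitor TFPI2 moved the other way, at least 127-fold higher (2.69 ± 0.02 and 10.99 ± 0.17). HBEGF, another ligand of the EGF receptor, named here after its values were seen, also rose (6.89-fold, adjusted p = 0.00046). The outputs most often read beside DUSP6 and SPRY4 were divided. ETV4, an ETS factor, was at least 6.36-fold lower (7.57 ± 0.26 and 4.75 ± 1.11, adjusted p = 0.012) and IER3 changed by -0.59 (adjusted p = 0.046). ETV5 changed by -0.05 (adjusted p = 0.95), FOSL1 by -0.19 (adjusted p = 0.88) and PHLDA1 by -0.06 (adjusted p = 0.92, although 2 of its 6 tested probe sets fell). EGR1 changed by -0.85 (adjusted p = 0.33; 0.0054 under the block), with 2 of its 3 tested probe sets called lower, while CCND1 changed by -1.05 (adjusted p = 0.080; 0.0032 under the block).

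The cascade itself leaned slightly the other way. Of 21 tested kinases, GTPases and adaptors, 5 rose (23.8%), 3 fell (14.3%) and 13 were not called, with a median log2 change of 0.29. The shares of all genes were 19.5% higher and 22.5% lower. With the replicate block 10 rose and 5 fell, beside 32.4% and 35.5% of all genes. HRAS rose from 9.27 ± 0.36 to 11.35 ± 0.32 (4.24-fold, adjusted p = 0.0023), the adaptor GRB2 from 9.76 ± 0.29 to 11.54 ± 0.43 (3.44-fold, adjusted p = 0.0051) and the docking protein GAB1 by 1.49 (adjusted p = 0.030). RPS6KA5, a nuclear kinase downstream of ERK and p38, changed by -1.52 (adjusted p = 0.020). MAP2K1 and MAP2K2, which encode the MEK kinases, changed by -0.13 (adjusted p = 0.86) and 0.65 (adjusted p = 0.39; 0.011 with the replicate block), and MAPK3, which encodes ERK1, by -0.09 (adjusted p = 0.77). Messenger levels say nothing of phosphorylation, and ERK activity was not measured.

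JNK and p38, the other substrates of DUSP1, DUSP2, DUSP4 and DUSP10, had no common direction. Of 20 genes of that arm tested, 3 rose (15%), 5 fell (25%) and 12 were not called, with a median log2 change of -0.57. These shares lay near those of all genes, 19.5% higher and 22.5% lower. With the replicate block 5 rose and 10 fell, beside 32.4% and 35.5% of all genes. MAP2K4, a kinase that activates JNK, rose from 6.74 ± 0.59 to 11.39 ± 0.10 (25.1-fold, adjusted p = 0.00019), while MAP3K5, an upstream stress kinase, was 49.7-fold lower (10.86 ± 0.51 and 5.23 ± 1.18, adjusted p = 0.0013). MAP3K1 and MAP2K6 changed by -2.26 and -1.82 (adjusted p = 0.0054 and 0.012). MAPK8, which encodes JNK1, changed by -1.38 (adjusted p = 0.069; 0.0057 with the replicate block), although 1 of its 3 tested probe sets was called lower. JUN, the best known target of JNK1, changed by -0.07 (adjusted p = 0.80).

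**Figure D4:**
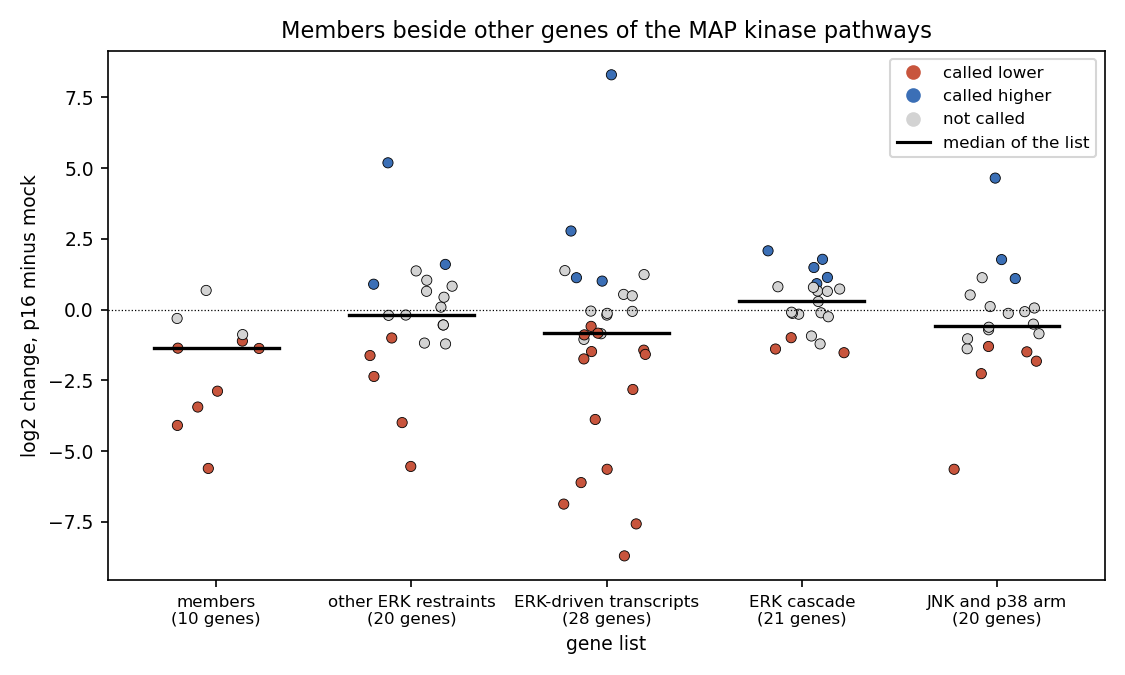
Log2 change from mock to p16 cells (vertical axis) for the 10 genes and for 4 lists of other MAP kinase pathway genes, 1 point per gene and black bars at list medians. Red points are called lower, blue higher and grey not called, and sideways position within a list carries no meaning. The 10 genes have the lowest median of the 5 columns at -1.37 and no gene called higher, whereas the cascade list has a median of 0.29.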

How the data were processed

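RNA of 3 mock and 3 p16 samples of Capan-1 cells was run on Affymetrix HG-U133 Plus 2.0 arrays. The deposited values are log2 expression levels that the authors normalized with GCRMA (version not stated), per the submitters' processing notes. This method models background from the probes' base composition, so silent probe sets collect near a floor and folds against it are lower bounds. Scanner files were not used here. Some genes of the pathway lists are not reported here.

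Of 54675 probe sets, 62 controls were left out; GEO's annotation gave 1 gene for 41091 of the rest. The test was limma's moderated test (lmFit, eBayes, two-sided; limma 3.58.1, R 4.3.3) of p16 against mock samples, with Benjamini-Hochberg adjustment over the 24406 probe sets at or above 4 in at least 3 samples. A gene takes its brightest tested probe set. Where any sample of the lower group was under 4, the fold is "at least N-fold", against values raised to 4. The test was also run on simulated data with samples drawn independently, so deviations shared by a V number were not covered by that check. The members, lists and named genes (the 10 members, a fixed set of pathway genes, and up to 4 called genes with the largest change per list) were chosen with earlier results of these data known.

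Deviations from the group means agreed between samples of the same number (correlations of 0.81, 0.75 and 0.67, all over 0.1), so by the rule used the numbers pair the samples. V2 and V3 of different groups agreed as well (0.51 and 0.42), and what a number means is not given in the labels. The fit with it as a replicate block is an alternative. Other steps used Python 3.11.15 with pandas 2.3.3 and scipy 1.17.1.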

Additional observations from a re-analysis of the deposited data

How the results depend on the processing

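The 10 genes kept the direction of their change under all 15 alternatives run, except that DUSP10 could not be tested with the stricter filter at 6. Of these alternatives 1, leaving out both V1 samples, was chosen after seeing the data. DUSP1, DUSP5, DUSP6, SPRY1, SPRY4 and SPRED2 were called in every fit. DUSP4 lost its call without the low value filter (adjusted p = 0.11, whereas its probe set 204014_at kept one at 0.040) and when any sample but mock V1 was left out, so 6 or 7 of the 10 genes were called in fits without 1 sample. DUSP2 gained a call with both V1 samples left out (adjusted p = 0.011). Scaling by quantiles or by array medians left the same 7 genes called, although quantiles added a call for the dimmer DUSP10 probe set.

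Over all genes, 7916 of 11658 were called with the replicate block, against 4895 without it. With the block the cascade, other restraint and JNK and p38 lists had 15 of 21, 16 of 20 and 15 of 20 genes called. Among the 10 genes the block changed no other call than those of DUSP2 and DUSP10. Leaving out both V1 samples gave 14 of 20 for JNK and p38, beside 5805 of 10659 over all genes. No low value filter gave 5 of 22 for the cascade, beside 4029 of 19775 over all genes. Leaving out 1 sample gave 2963 to 4292 genes called, 5 to 7 for the cascade, 5 to 7 for other restraints and 11 to 17 for ERK-driven transcripts. The lowest counts over all genes came without mock V2, mock V3, p16 V2 or p16 V3 (3203, 3028, 3060 and 2963), for the cascade without mock V2 or p16 V2, for other restraints without p16 V2 or V3, and for ERK-driven transcripts without p16 V3. Arrays leave probe sets near the floor, such as 215501_s_at of DUSP10 in mock cells and SPRY4 in p16 cells, with a bound rather than a level.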

Other observations

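V1 stood apart from V2 and V3 in both groups for several of these genes. In 13 of the 16 tested probe sets, V1 deviated from the mean of V2 and V3 in the same direction in mock and p16 cells. Such agreement ran across the array: deviations of mock V1 and p16 V1 from their group means correlated at 0.81 over 24406 probe sets. It is therefore not particular to these genes, and some deviations were small, as for DUSP1 on 201041_s_at (0.11 and 0.08). DUSP10 was higher in V1, by 1.80 in mock and 1.57 in p16 samples (221563_at), and DUSP2 by 1.31 and 0.87. DUSP4 on 204015_s_at was lower in V1, by -2.35 and -1.65, but on 226034_at higher, by 0.83 and 0.67. DUSP5 was the clearest case of a deviation in 1 group alone, 0.08 in mock and -1.95 in p16 samples.

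The genes whose levels tracked a member most closely over the 6 samples were these, by Pearson correlation on the brightest tested probe set, as a description over 6 points that share the 2 groups. For SPRY1 they were IGFBP6, MYRF and TNKS2 (r of 0.9997, 0.9997 and 0.9995), for DUSP6 ABCC1, CHKB and LRRFIP1 (0.9987, 0.9979 and 0.9976) and for SPRY4 TSC22D3, ANTKMT and MIB2 (0.9993, 0.9984 and 0.9980). DUSP1 was closest to BCDIN3D, GNAS-AS1 and PXMP4 (0.9998, 0.9995 and 0.9994) and DUSP5 to IFNAR2, CFDP1 and CDC6 (0.9958, 0.9946 and 0.9938). Such likeness is common in these data: 1509 genes had an r over 0.95 with SPRY1, 1049 with DUSP6 and 181 with SPRY2.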
